A study of Mus musculus with 16 samples.

Results

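The genes described here are 7 matrix metalloproteinases (Mmp8, Mmp9, Mmp12, Mmp13, Mmp14, Mmp19 and Mmp25), the tissue inhibitors Timp1 and Timp2, and the lysyl oxidase gene Lox, 10 of the 22180 genes measured. They were taken by symbol, and each had 1 probe set, so the rule of using the probe set with the highest mean had nothing to decide. The list itself was chosen by someone who already knew how these genes changed on these arrays, so the count of members that moved is a description of the list and not evidence about the family. All 10 lay above the level of silent genes in every group.

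The cells were dendritic cells grown from the bone marrow of male C57/B6 mice for 10 days in 20 ng/ml GM-CSF and then treated for 24 h. The 4 groups were IMQ in the presence of PA, IMQ alone, PA alone and mock, with 4 arrays labelled as biological replicates in each. PA is read as palmitic acid, a saturated fatty acid, and was carried on bovine serum albumin (0.5 mM PA, molar ratio 6:1). IMQ is read as imiquimod, which activates the endosomal receptor TLR7, and its dose is 3 uM in the series design and 3 ug/ml in the sample protocols. Whether cells without PA received albumin is not stated, nor whether replicates came from separate animals, so the p-values here cover no more than array-to-array spread. Such cultures are mixed, and in bulk RNA fewer cells of a type and less RNA per cell cannot be told apart.

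Matrix metalloproteinases are zinc-dependent endopeptidases made as inactive precursors, which cut collagens, gelatin, elastin and other matrix proteins as well as cytokines and surface receptors. TIMPs bind the active site and block it, while lysyl oxidase works on the building side, crosslinking collagen and elastin. Dendritic cells and macrophages use these enzymes to leave tissue, cross basement membranes and remodel the matrix around them.

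Values are log2 RMA values, as the authors deposited them. Changes are differences of group means on that scale, given with the standard error of a limma fit over all genes after ±. A gene is called where its Benjamini-Hochberg adjusted p over all 22180 genes is under 0.05, and is dim where its 4 group means all lie below 4.93, the 95th percentile of 1446 sensory receptor genes. Levels are compared between groups and not between genes, since probe sets differ in how brightly they read. Sums and shares of markers are an exception, and weigh bright probe sets more than others.

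Arrays without IMQ were not alike in inflammatory genes. Il6, an inflammatory cytokine gene, read 12.25 to 12.27 with IMQ and PA and 11.86 to 12.02 with IMQ. With PA alone replicates 1 and 2 lay at or under 4.12 and replicates 3 and 4 at 7.43 and 8.22, and the mock arrays at 7.57, 7.90, 7.71 and 4.32. The 3 mock and 2 PA arrays high in Il6 bear on PA versus mock and on the interaction, and the members' calls in both are therefore given with and without these 5 arrays.

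IMQ alone moved most of the list, and in both directions. Of the 10 genes 5 rose (Lox, Mmp9, Timp1, Mmp14 and Mmp25), 4 fell (Timp2, Mmp19, Mmp8 and Mmp12) and Mmp13 was not called. Over all genes tested 17.0% were called higher and 17.9% lower. The median size of change was 1.49 among the members and 0.16 among all genes. All genes here include 8628 that were dim in all groups, while no member was dim, so the sets are not alike in this. With dim genes left out, 7694 of 13552 genes were called for IMQ versus mock and 5143 for IMQ and PA versus IMQ. PA alone moved few, with Mmp13 and Mmp19 called higher and Lox lower, against 1.05% and 0.442% of all genes. When PA was given with IMQ, 4 members were higher than with IMQ alone (Mmp19, Mmp13, Mmp9 and Mmp8) and 2 were lower (Lox and Mmp14), against 11.6% and 9.44% of all genes. The other four were not called. Compared with PA alone, IMQ with PA raised 7 members and lowered 3 (all genes, 16.8% and 18.5%), and compared with mock the same 7 to 3 split was found (all genes, 18.4% and 18.1%). The interaction was called for 5 members, 4 upwards (Mmp19, Mmp13, Timp2 and Mmp8) and 1 downwards (Mmp14), against 6.58% and 7.01% of all genes. These comparisons share arrays and are not independent of each other.

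**Figure D1:**
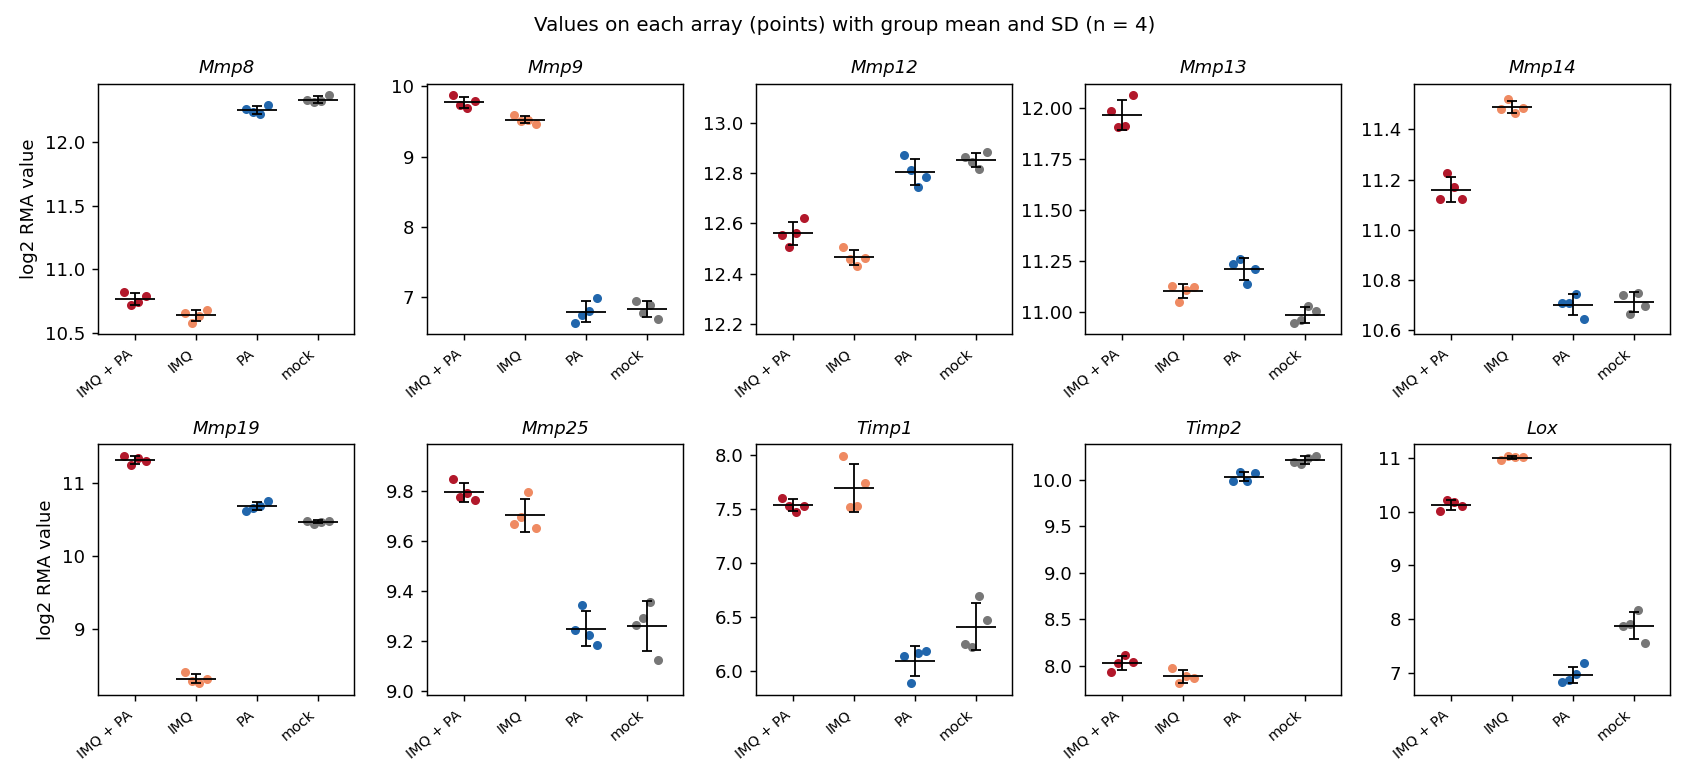
Log2 RMA value of each of the 10 genes on every array (points, 4 per group) with the group mean and SD (black). Each panel has its own vertical axis. Mmp19 is highest with IMQ and PA (11.26 to 11.38) and lowest with IMQ alone (8.26 to 8.41), while Lox is high in both IMQ groups and lower wherever PA was present.

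Among the secreted enzymes, Mmp19, a widely expressed MMP found in myeloid cells, gave the largest change of the list when PA joined IMQ. It read 11.38, 11.26, 11.35 and 11.30 with IMQ and PA, 8.41, 8.28, 8.26 and 8.31 with IMQ alone, 10.63, 10.66, 10.69 and 10.76 with PA alone, and 10.49, 10.44, 10.47 and 10.49 in mock cells. The 4 groups did not overlap. IMQ alone lowered Mmp19 4.45-fold relative to mock (log2 change -2.15 ± 0.05, limma adjusted p = 2.52e-14), and IMQ with PA raised it 8.03-fold relative to IMQ alone (3.00 ± 0.05, adjusted p = 2.67e-15). In PA-treated cells the IMQ change had the opposite sign, a rise of 0.64 ± 0.05 over PA alone (adjusted p = 1.29e-08). The interaction (the change that PA made in IMQ-treated cells less the one it made in cells without IMQ) was 2.79 ± 0.07 (adjusted p = 1.38e-12). The rise with PA alone was small (0.21 ± 0.05, adjusted p = 0.034), and its call was lost when any 1 of 7 arrays was left out, which were all 4 mock arrays and PA replicates 2, 3 and 4 (adjusted p from 0.0628 to 0.121).

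Mmp13, the main interstitial collagenase of mice, rose where PA was present. It read 11.99, 11.91, 11.91 and 12.07 with IMQ and PA and 11.13, 11.05, 11.11 and 11.12 with IMQ alone. Without IMQ it read 11.24, 11.26, 11.14 and 11.21 with PA and 10.95, 10.96, 11.03 and 11.01 in mock cells. Neither pair overlapped. The PA change was 0.87 ± 0.05 with IMQ (1.82-fold, adjusted p = 1.86e-09) and 0.22 ± 0.05 without it (adjusted p = 0.0241), and these differed by 0.64 ± 0.07 (interaction adjusted p = 6.06e-06). The call without IMQ was lost without mock replicate 1 or 2 or PA replicate 1, 2 or 4 (adjusted p from 0.0688 to 0.0857). IMQ alone changed Mmp13 by 0.12 ± 0.05 (95% interval 0.02 to 0.22, adjusted p = 0.0703), which was not called. It was called with dim genes left out (adjusted p = 0.0314) and with a variance trend (adjusted p = 0.00481).

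Mmp8, the collagenase also found in neutrophil granules, responded to IMQ and little to PA. It read 10.83, 10.72, 10.74 and 10.79 with IMQ and PA, 10.66, 10.58, 10.64 and 10.68 with IMQ, 12.27, 12.24, 12.23 and 12.29 with PA and 12.34, 12.32, 12.32 and 12.37 in mock cells. All 8 arrays with IMQ lay more than 1 log2 unit below all 8 without it. The fall with IMQ alone was 3.24-fold (-1.70 ± 0.04, adjusted p = 5.39e-14). PA with IMQ gave a rise of 0.13 ± 0.04 over IMQ alone (adjusted p = 0.0327), a call lost without IMQ replicate 2 or 3 or IMQ and PA replicate 1 or 4 (adjusted p from 0.0568 to 0.103), and at an adjusted p of 0.119 when only those 2 groups were fitted. The interaction was 0.21 ± 0.06 (adjusted p = 0.0224), and adjusted p was 0.0502 without IMQ replicate 2 and 0.0521 with array medians set equal.

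Mmp12, the macrophage elastase, changed least among the members that IMQ lowered. Its group means were 12.6 with IMQ and PA, 12.5 with IMQ, 12.8 with PA and 12.9 in mock cells, all near the highest value on any array (13.5). The IMQ change was -0.39 ± 0.04 without PA (adjusted p = 1.46e-06) and -0.24 ± 0.04 with it (adjusted p = 0.000193). IMQ and PA against IMQ gave 0.10 ± 0.04 (adjusted p = 0.133), which was not called, though it was after repeated quantile normalization (0.12, adjusted p = 0.0224) and with a variance trend (adjusted p = 0.00526).

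Mmp13, Mmp12 and Mmp8 belong to a run of 10 neighbouring Mmp genes on chromosome 9, with no other protein-coding gene of RefSeq between them. All 10 were measured, and 4 were dim in all groups. Of the other genes in the run that were not dim, Mmp10, a stromelysin, read 7.20, 6.89, 7.27 and 7.21 with IMQ and PA and 6.22, 5.85, 6.05 and 5.84 with IMQ (1.15 ± 0.12, adjusted p = 2.14e-06). The arrays did not overlap, and Mmp10 also rose with IMQ alone relative to mock (0.62 ± 0.12, adjusted p = 0.00048). Mmp27 fell with IMQ (-0.89 ± 0.10, adjusted p = 2.62e-06), beside Mmp8 in the run, and Mmp7 was called in neither comparison.

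**Figure D2:**
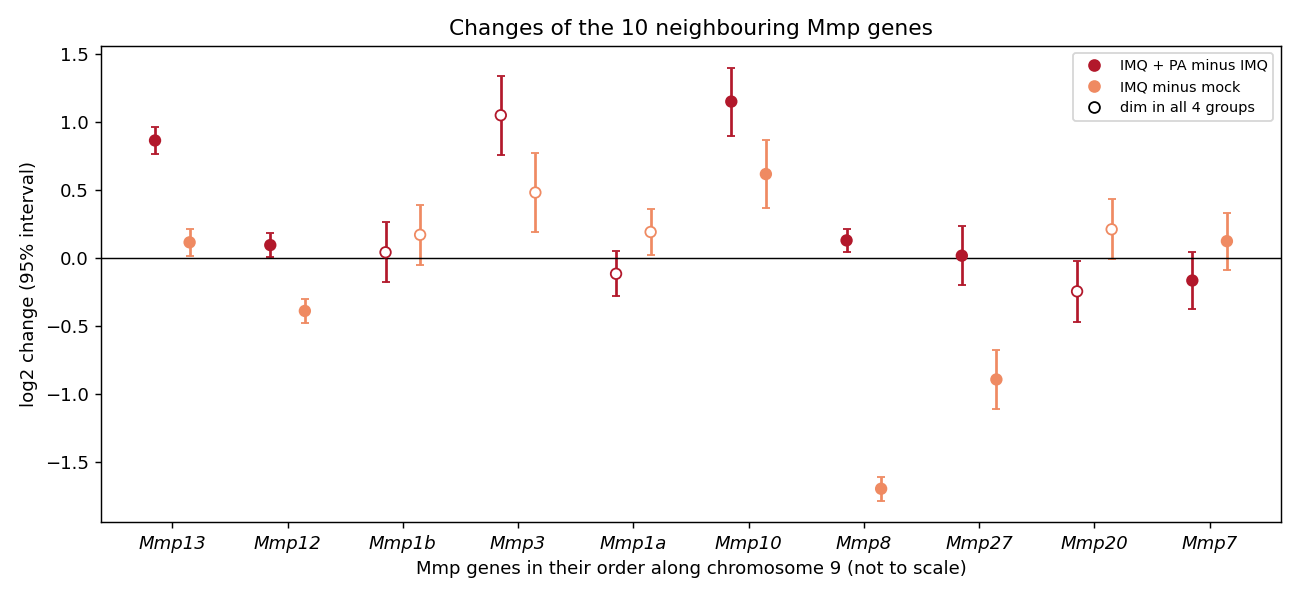
Log2 change of the 10 neighbouring Mmp genes of chromosome 9, in their order along it, for IMQ with PA minus IMQ and for IMQ minus mock, with 95% intervals; open symbols are genes dim in all 4 groups. Rises with PA stand at Mmp13 (0.87), Mmp10 (1.15) and the dim Mmp3, with Mmp8 at 0.13, and falls with IMQ at Mmp8 (-1.70), Mmp27 (-0.89) and Mmp12 (-0.39).

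Upstream sequences of these 3 neighbours are shown because the genes lie in 1 run, while IMQ lowered Mmp8 and Mmp12 and PA with IMQ raised Mmp13. Each run is the 250 bases before an annotated start, from RefSeq on build GRCm38.p6, plus strand, 5′ to 3′. The array files name no build. Capitals mark matches on either strand to 3 motifs known from MMP promoters, which are the AP-1 element TGANTCA, the PEA3 element AGGAAG and the NF-kB element. Mmp13 lies at chr9:7272264-7272513, the 2 starts listed for Mmp12 at chr9:7344147-7344396 and chr9:7347124-7347373, and Mmp8 at chr9:7558179-7558428.
Mmp13: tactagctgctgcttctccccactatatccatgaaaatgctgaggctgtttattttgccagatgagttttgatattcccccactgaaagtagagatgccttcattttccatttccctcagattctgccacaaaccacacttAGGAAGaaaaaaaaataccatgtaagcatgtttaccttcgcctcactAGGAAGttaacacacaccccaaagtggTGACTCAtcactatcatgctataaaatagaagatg
Mmp12, first start: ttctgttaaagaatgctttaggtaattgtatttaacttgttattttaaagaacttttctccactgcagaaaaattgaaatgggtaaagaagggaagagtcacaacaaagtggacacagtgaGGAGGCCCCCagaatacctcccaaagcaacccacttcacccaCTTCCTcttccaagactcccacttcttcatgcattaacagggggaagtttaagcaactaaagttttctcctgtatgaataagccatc
Mmp12, second start: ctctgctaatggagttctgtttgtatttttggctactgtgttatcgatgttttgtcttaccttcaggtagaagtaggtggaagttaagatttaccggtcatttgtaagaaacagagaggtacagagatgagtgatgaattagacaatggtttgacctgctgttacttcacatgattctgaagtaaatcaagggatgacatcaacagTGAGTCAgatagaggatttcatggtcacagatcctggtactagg
Mmp8: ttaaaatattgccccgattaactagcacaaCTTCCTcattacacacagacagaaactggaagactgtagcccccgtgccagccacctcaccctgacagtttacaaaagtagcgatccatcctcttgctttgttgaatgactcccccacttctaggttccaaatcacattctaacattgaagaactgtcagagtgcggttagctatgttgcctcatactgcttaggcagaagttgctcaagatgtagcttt

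The Mmp13 window held 1 AP-1 match, TGACTCA, beginning 35 bases before the start, and 2 PEA3 matches beginning 109 and 62 bases before it. The first Mmp12 window held 1 PEA3 and 1 NF-kB match, the second 1 AP-1 match (TGAGTCA, 44 bases before), and the Mmp8 window 1 PEA3 match 220 bases before. No matches overlapped. Among all 32851 upstream windows of the same length, 6.75% held the AP-1 letters, 29.5% the PEA3 letters and 7.25% the NF-kB element. PEA3 matches are thus common and the others less so, and all of them describe letters only. Windows were read for 7 of the 10 members. Lox was left out because it lies on chromosome 18, and no window was listed for Mmp9 or Mmp19. The chromosome 18 rule was not applied to the 32851 windows.

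Mmp9, gelatinase B, was the metalloproteinase of the list that IMQ raised most. It read 9.88, 9.73, 9.69 and 9.80 with IMQ and PA and 9.59, 9.51, 9.52 and 9.47 with IMQ, against 6.64, 6.75, 6.81 and 6.99 with PA and 6.95, 6.78, 6.90 and 6.70 in mock cells. The arrays with IMQ stood clear of those without it, and the PA and mock arrays overlapped. The rise with IMQ alone was 6.46-fold (2.69 ± 0.07, adjusted p = 1.55e-13). PA added 0.25 ± 0.07 on top of IMQ (adjusted p = 0.0234), a call lost without any 1 of 4 arrays (adjusted p = 0.0535 without IMQ replicate 2, 0.0648 without IMQ replicate 4, 0.0733 without IMQ and PA replicate 1 and 0.0525 without IMQ and PA replicate 4). With PA alone Mmp9 changed by -0.03 ± 0.07 (95% interval -0.19 to 0.12). Its interaction was 0.28 ± 0.10 (adjusted p = 0.0927), and it was called without PA replicate 4 (0.35, adjusted p = 0.0256). The interaction was also called with dim genes left out (limma adjusted p = 0.0487) and with a variance trend (limma adjusted p = 0.0276).

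Mmp14 and Mmp25 encode membrane-bound enzymes. Mmp14, which cuts collagen at the cell surface and activates pro-MMP2, read 11.12, 11.22, 11.17 and 11.12 with IMQ and PA, 11.48, 11.52, 11.47 and 11.49 with IMQ, 10.71, 10.71, 10.74 and 10.64 with PA, and 10.74, 10.66, 10.75 and 10.70 in mock cells. The PA and mock arrays overlapped, and both IMQ groups stood apart from them and from each other. IMQ alone raised it 1.71-fold (0.78 ± 0.04, adjusted p = 2.76e-10), and it was lower with IMQ and PA than with IMQ alone (-0.33 ± 0.04, adjusted p = 2.3e-05). Its PA change without IMQ was -0.01 ± 0.04 (95% interval -0.10 to 0.08), and the interaction was -0.32 ± 0.06 (adjusted p = 0.00154). Mmp25, a lipid-anchored enzyme of leukocytes, rose with IMQ by 0.44 ± 0.06 (adjusted p = 7.68e-06). It was not called for PA with IMQ (0.09 ± 0.06, 95% interval -0.03 to 0.21, adjusted p = 0.294).

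The inhibitors moved in opposite directions with IMQ. Timp2, which blocks MMPs and also links pro-MMP2 to MMP14 at the membrane, read 7.94, 8.03, 8.12 and 8.04 with IMQ and PA, 7.97, 7.81, 7.90 and 7.87 with IMQ, 9.99, 10.08, 9.98 and 10.06 with PA, and 10.19, 10.16, 10.23 and 10.25 in mock cells. Every array with IMQ lay below every array without it, and the PA arrays lay below the mock arrays. The fall with IMQ alone was 4.99-fold (-2.32 ± 0.05, adjusted p = 2.52e-14). Its PA changes, -0.18 ± 0.05 without IMQ (adjusted p = 0.106) and 0.14 ± 0.05 with it (adjusted p = 0.056), were not called singly, but their difference was (interaction 0.32 ± 0.07, adjusted p = 0.00587). The change with IMQ was called without replicate 1 of IMQ (adjusted p = 0.0337) or of IMQ and PA (adjusted p = 0.0275), and the change without IMQ after repeated quantile normalization (adjusted p = 0.0365). Both changes were called with dim genes left out (limma adjusted p = 0.0235 with IMQ and 0.0453 without). Both were also called with a variance trend (limma adjusted p = 0.0119 with IMQ and 0.0138 without).

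Timp1, which also binds pro-MMP9, read 7.60, 7.53, 7.47 and 7.53 with IMQ and PA, 7.99, 7.52, 7.53 and 7.74 with IMQ, 6.14, 5.89, 6.16 and 6.18 with PA and 6.26, 6.22, 6.70 and 6.47 in mock cells. The IMQ groups overlapped each other and lay above the rest. IMQ alone raised it 2.43-fold (1.28 ± 0.11, adjusted p = 1.5e-07). The PA change without IMQ was -0.32 ± 0.11 (95% interval -0.56 to -0.07), and though the arrays did not overlap it was not called over all genes (adjusted p = 0.209).

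Lox had the largest rise with IMQ among the 10 genes and fell with PA both with and without IMQ. It read 10.01, 10.23, 10.19 and 10.11 with IMQ and PA, 10.97, 11.04, 11.02 and 11.02 with IMQ, 6.82, 6.87, 6.97 and 7.17 with PA, and 7.88, 7.91, 8.17 and 7.56 in mock cells. No 2 of the 4 groups overlapped. IMQ alone raised it 8.76-fold (3.13 ± 0.10, adjusted p = 1.05e-12). PA lowered it 1.84-fold with IMQ (-0.88 ± 0.10, adjusted p = 1.14e-05) and 1.89-fold without (-0.92 ± 0.10, adjusted p = 0.000194). The difference between these falls was 0.04 ± 0.15 (95% interval -0.27 to 0.36, adjusted p = 0.898).

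**Figure D3:**
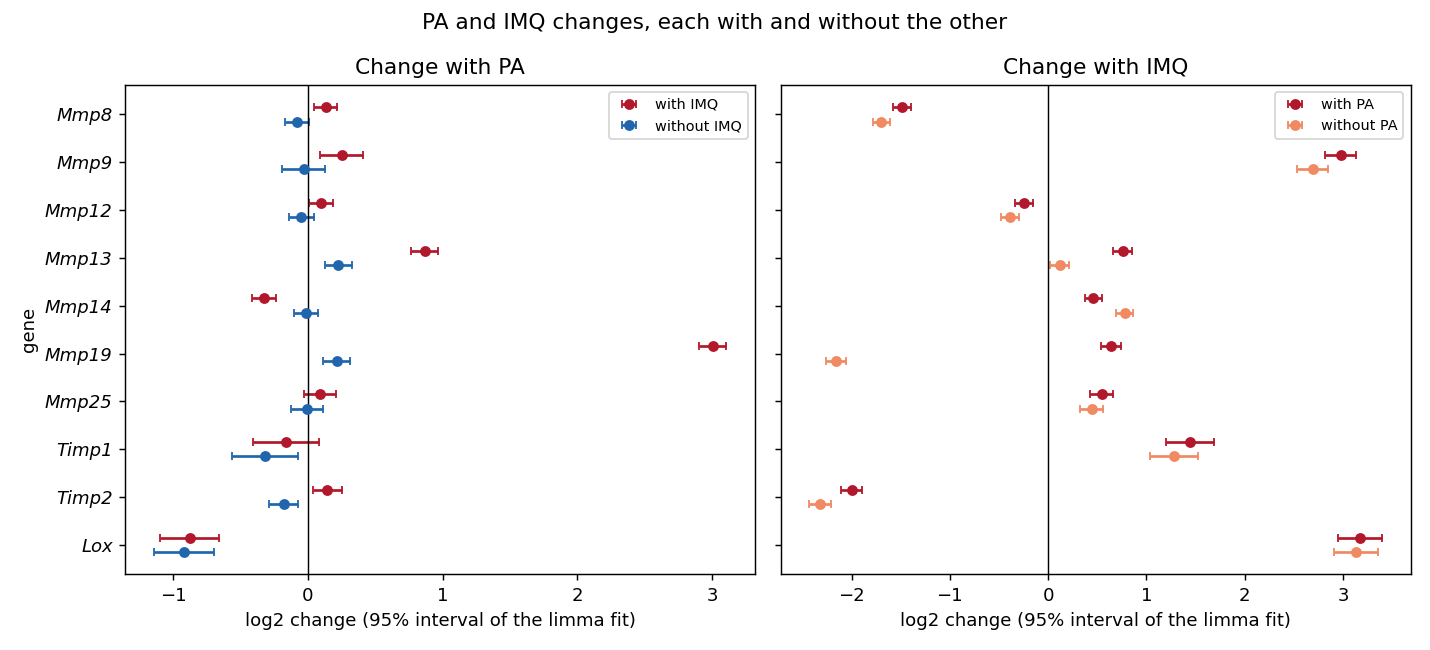
Log2 change of each gene with PA (left panel) and with IMQ (right panel), each in the presence and absence of the other agent, with the 95% interval of the limma fit. The PA changes of Mmp19 stand at 3.00 with IMQ and 0.21 without it, and its IMQ changes lie on opposite sides of 0.

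The order of the group levels thus differed from gene to gene. Mmp9 ran IMQ with PA, IMQ, then mock and PA, which did not differ beyond their spread. Mmp14 ran IMQ, IMQ with PA, then mock and PA, whose arrays overlapped. Lox ran IMQ, IMQ with PA, mock, PA. Timp2 and Mmp8 ran mock and PA above both IMQ groups, with differences within each pair of at most 0.18. Mmp19 and Mmp13 were both highest with IMQ and PA, but Mmp19 was lowest with IMQ and Mmp13 in mock cells.

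Without the 5 arrays high in Il6, 1 mock and 2 PA arrays remained, and the single mock array was assumed to have the spread of the rest. For PA versus mock 1 of the 3 calls was left, that of Lox (-0.72, adjusted p = 0.0416), while Mmp13 (0.24, adjusted p = 0.564) and Mmp19 (0.15, adjusted p = 0.778) kept their sign and lost their call. Of the 5 interaction calls Mmp19 (2.85, adjusted p = 2.66e-06) and Mmp13 (0.63, adjusted p = 0.00602) were left. Mmp14 (-0.34, adjusted p = 0.0645), Timp2 (0.37, adjusted p = 0.115) and Mmp8 (0.25, adjusted p = 0.186) gave values no smaller than before and were not called. The 9 calls for IMQ versus mock were all still made, and of the 6 for IMQ and PA versus IMQ that of Mmp8 was lost (adjusted p = 0.0888).

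Of the 15 other Mmp genes measured (7 of them dim), 4 were higher and 1 lower with IMQ versus mock (all genes, 17.0% and 17.9%), and 2 were higher and 1 lower with IMQ and PA versus IMQ (all genes, 11.6% and 9.44%). In both comparisons the share called was near that of all genes. The largest change was in Mmp2, gelatinase A, the enzyme that MMP14 activates. It read 9.36, 9.47, 9.32 and 9.28 with IMQ and PA, 10.89, 10.86, 10.91 and 10.88 with IMQ, 7.94, 7.97, 8.16 and 7.99 with PA and 8.68, 8.71, 8.69 and 8.40 in mock cells. The 4 groups did not overlap and stood in the same order as for Lox. IMQ raised Mmp2 (2.27 ± 0.07, adjusted p = 5.96e-13), and PA lowered it both with IMQ (-1.53 ± 0.07, adjusted p = 3.55e-10) and without (-0.60 ± 0.07, adjusted p = 0.00025). Without the 5 arrays high in Il6 the fall with PA alone was not called (-0.44, adjusted p = 0.193). Mmp3 was also called higher with IMQ and PA, but both means were below 4.93 and no size is given.

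Of the 4 further MMP inhibitors measured, Timp3 rose with IMQ by 0.66 ± 0.11, from a mock mean of 4.73 that is below 4.93. It was lower with IMQ and PA than with IMQ (-0.40 ± 0.11). Of 3 other Lox family genes measured, Loxl4 was called higher with IMQ (0.32 ± 0.10, adjusted p = 0.0162), and for IMQ and PA versus IMQ it gave -0.26 ± 0.10 (adjusted p = 0.0741).

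A list around pro-enzyme activation held convertases, plasminogen activators and their receptor, but also an inhibitor (Serpinb2) and a clearance receptor (Lrp1). Of its 16 genes measured 10 were called for IMQ versus mock, 6 higher and 4 lower (all genes, 17.0% and 17.9%), at a median of 0.18 against 0.01 over all genes. For IMQ and PA versus IMQ 4 were called, all higher (all genes, 11.6% higher and 9.44% lower), which together is near the share of all genes called, and the list's median was -0.05 against -0.02 over all genes. The urokinase gene Plau, whose protease starts the plasmin cascade that activates several MMPs, read 7.32, 7.51, 7.54 and 7.27 with IMQ and PA and 6.38, 5.94, 6.30 and 6.04 with IMQ, against 9.18 to 9.32 in mock cells. It fell with IMQ (-3.10 ± 0.09) and was higher when PA was added (1.24 ± 0.09, adjusted p = 5.7e-08). Its receptor gene Plaur was also lowest with IMQ, at 10.30, 10.13, 10.26 and 10.19 with IMQ and PA and 9.20, 9.13, 9.13 and 9.05 with IMQ, against 10.27 to 10.38 in mock cells. The IMQ change of Plaur was -1.19 ± 0.05 and the change on adding PA 1.09 ± 0.05 (adjusted p = 2.09e-10). Plat, the tissue plasminogen activator, rose with IMQ (2.20 ± 0.14), as did Serpinb2, the macrophage inhibitor of plasminogen activators (3.52 ± 0.16, adjusted p = 4.26e-11).

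**Figure D4:**
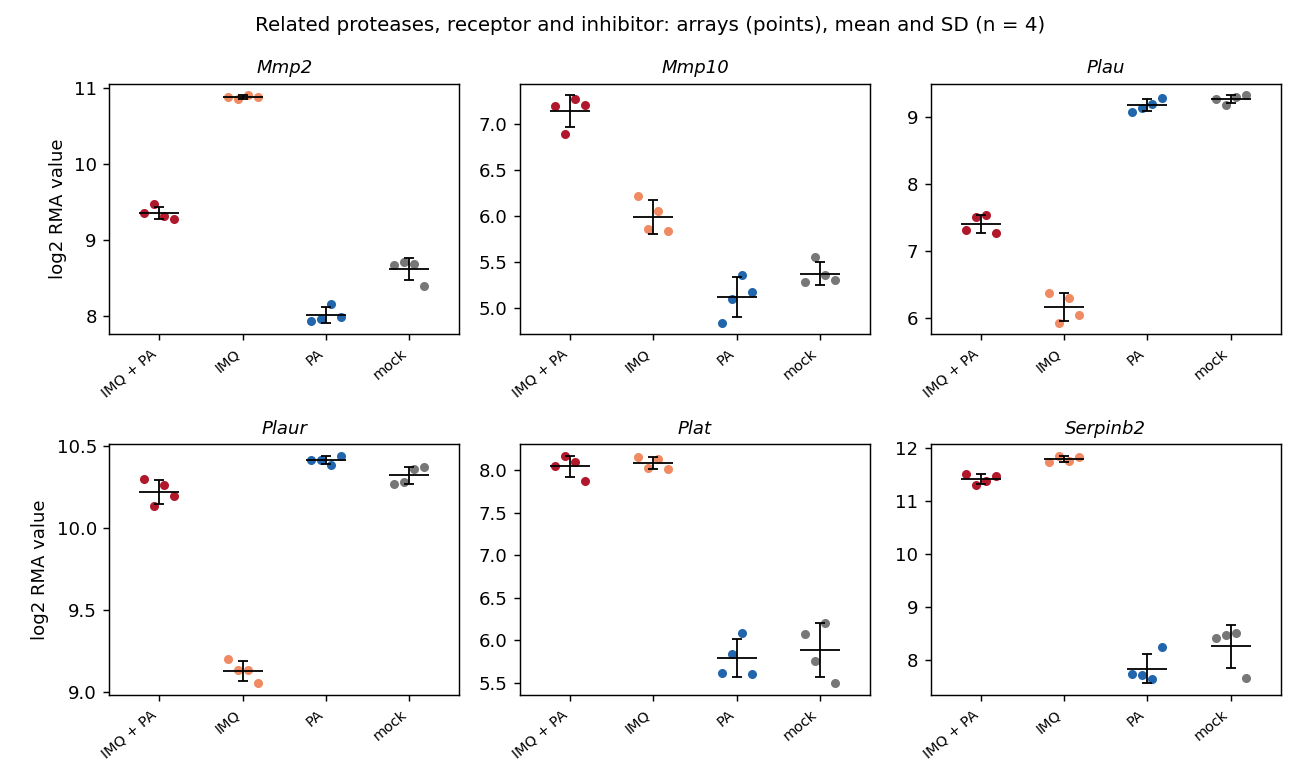
Log2 RMA value on every array (points, 4 per group) with the mean and SD for Mmp2, Mmp10 and the plasminogen activation genes Plau, Plaur, Plat and Serpinb2, each panel with its own axis. Mmp2 is highest with IMQ alone, Plau and Plaur are lowest there, and Plat and Serpinb2 are high in both IMQ groups.

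Of 20 matrix component genes measured, 6 rose and 4 fell with IMQ (all genes, 17.0% and 17.9%), and 5 were higher and 1 lower with IMQ and PA than with IMQ (all genes, 11.6% and 9.44%). The list's medians were 0.09 and -0.03, against 0.01 and -0.02 over all genes. Fibronectin (Fn1) fell with IMQ (-1.78 ± 0.04) and thrombospondin 1 (Thbs1) rose (1.32 ± 0.07). Decorin (Dcn), a small proteoglycan of collagen fibrils, rose by 3.10 ± 0.14, from a mock mean of 4.43 that is below 4.93. Of 19 related ADAM and ADAMTS genes 5 rose and 5 fell with IMQ (all genes, 17.0% and 17.9%). The largest changes were in Adamts7 (1.47 ± 0.10, from a mock mean of 4.90 that is below 4.93) and Adamts10 (-1.44 ± 0.09). With IMQ and PA 2 were higher and 6 lower than with IMQ (all genes, 11.6% and 9.44%).

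Since Mmp8, Mmp9 and Mmp25 are also neutrophil genes, neutrophil markers were read beside them. Of 14 markers 6 (Ly6g, Camp, Ltf, Mpo, Ctsg and Retnlg) were dim in all groups. The summed linear level of all 14 was 4816 to 4957 with IMQ and PA, 6699 to 7109 with IMQ, 787.4 to 1288 with PA and 903.6 to 2305 in mock cells. Lcn2, also made by stimulated macrophages, made up 86.3 to 87.3% of that sum with IMQ and PA, 85.8 to 87.0% with IMQ, 17.9 to 49.5% with PA and 19.6 to 68.3% in mock cells. These are shares of probe set signal and not of transcripts. The other 13 markers summed to 631.0 to 678.8 with IMQ and PA, 916.4 to 951.5 with IMQ, 646.2 to 650.1 with PA and 726.6 to 734.1 in mock cells. Lcn2 was picked after its rise with IMQ was seen, so a smaller contrast in the rest was fixed by that choice. With IMQ versus mock 4 of the 14 rose (Lcn2, S100a8, Csf3r and the dim Camp) and 2 fell (S100a9 and Cxcr2). Over all genes 17.0% were called higher and 17.9% lower. The list's median change was -0.04 against 0.01 over all genes. The rise was 2.81 ± 0.58 for Lcn2, or 5.07 without the 5 arrays high in Il6, and 1.52 ± 0.08 for S100a8. Csf3r was lower with IMQ and PA than with IMQ (-1.85 ± 0.05).

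For Lox and Timp2, which stromal cells express, 4 of 11 fibroblast and stromal markers were dim in all groups (Pdgfra, Lum, Tagln and Cxcl12). The summed level of all 11 was 655.2 to 706.4 with IMQ and PA, 802.2 to 872 with IMQ, 434.3 to 472.3 with PA and 476.1 to 500.4 in mock cells. With IMQ versus mock 3 of the 11 rose (Dcn, Pdgfrb by 2.48 ± 0.12, and the dim Lum) and 2 fell (Postn and Acta2). Over all genes 17.0% were called higher and 17.9% lower. The list's median change was -0.05 against 0.01 over all genes. The collagen genes Col1a1, Col1a2 and Col3a1 were not called (-0.09 ± 0.09, -0.05 ± 0.10 and -0.15 ± 0.09), nor were the dim Pdgfra, Tagln and Cxcl12. Without Dcn and Pdgfrb the sum was 328.8 to 352.8 with IMQ and PA, 350.3 to 366.1 with IMQ, 371.7 to 406.3 with PA and 390.4 to 422.9 in mock cells. These genes were picked after their rise with IMQ was seen. The loss of that rise from the sum was thus fixed by the choice. Whether stromal cells had a part in the changes was not tested.

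All 11 macrophage markers measured lay above the dim level in every group, with summed levels of 13650 to 14060 with IMQ and PA, 17150 to 18040 with IMQ, 19810 to 20140 with PA and 19980 to 20970 in mock cells. With IMQ versus mock 4 of the 11 were called higher and 6 lower (all genes, 17.0% and 17.9%). With IMQ and PA versus IMQ 2 were higher and 8 lower (all genes, 11.6% and 9.44%). Of 10 conventional dendritic cell markers 8 were above the dim level, Clec10a and Xcr1 being dim. The summed level of all 10 was 10290 to 10450 with IMQ and PA, 9490 to 9730 with IMQ, 11110 to 11680 with PA and 11690 to 11980 in mock cells. With IMQ versus mock 4 of the 10 were called higher and 5 lower (all genes, 17.0% and 17.9%). With IMQ and PA versus IMQ 2 were higher and 1 lower (all genes, 11.6% and 9.44%). Of 6 lymphocyte markers 0 were above the dim level in any group. For mast cells and basophils 6 of 8 markers were dim.

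Some genes tracked the members closely over the 16 arrays, as a description of shape in which the 4 groups set most of the correlation. Among 1599 candidate genes that were not dim and whose group means spanned at least 1 log2 unit, Mmp19 was nearest to Dcstamp (Pearson r = 0.997), Csrp1 (0.993) and Lrrc32 (0.987). Lox was nearest to Cfb (0.997), Vnn3 (0.994) and Marco (0.992). Mmp9 was nearest to Qsox1 (0.999), Slco3a1 (0.998) and Malt1 (0.997). Mmp8 was nearest to Arhgap25, Timp2 and Cebpa (each r = 0.998), and Timp2 to Mamdc2 (0.999), Cebpa (0.998) and Itgb5 (0.998). For Timp1 the nearest were Rai14 (0.984), Car4 (0.982) and Uba7 (0.977).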

How the data were processed

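Total RNA (200 ng) was labelled with biotin and hybridised to 1-colour Affymetrix mouse arrays, per the labels' protocols. The deposited log2 values were made with RMA and affy, per the submitters' processing notes, for which no versions or genome build are given in the sources used here. There were 16 arrays of 41345 probe sets, spanning 0.63 to 13.5. Arrays have no read depth, so their number limits the precision.

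Of the probe sets 23521 had 1 gene symbol in the platform annotation, and 23328 of these were found by gene number in RefSeq (GRCm38.p6). The probe set with the highest mean stood for each of the 1082 genes that had several, which left 22180 genes. With limma 3.58.1 (R 4.3.3), 1 linear model of the 4 groups was estimated from all 16 arrays (lmFit, eBayes, two-sided, 12 residual and 2.96 prior degrees of freedom), and p-values were adjusted by Benjamini-Hochberg over all genes. The steps were tested on simulated data.

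The members, lists and tests were chosen with earlier results of these data known. Genes outside the list are named if called with a log2 change of at least 1 in IMQ versus mock or IMQ and PA versus IMQ, at most 4 per list, and the 3 nearest genes by Pearson r are given for members whose group means spanned at least 1. Mmp27, Timp3, Loxl4, Mmp7 and single markers were named after their values were seen. Alternatives covered normalization, centring, dim genes, variance moderation, pairing, groups fitted, probe sets and left-out arrays. Marker sums without their leading genes, and genes outside the list without the 5 arrays high in Il6, were added after seeing the data.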

Additional observations from a re-analysis of the deposited data

Results flagged for a closer look

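For 5 members the PA change in the presence of IMQ differed from the PA change in its absence by the limma interaction test. The differences were 2.79 for Mmp19, 0.64 for Mmp13, 0.32 for Timp2, 0.21 for Mmp8 and -0.32 for Mmp14, on the log2 scale. Among 40 sets of 4 arrays (10 genes in 4 groups), 1 held an array far from the others by Dixon's criterion, which chance meets in about 1 of 20 sets. It was Timp1 in PA replicate 2, at 5.89 against 6.14 to 6.18 on the other PA arrays.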

How the results depend on the processing

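The calls for IMQ and PA versus PA and versus mock (10 members each) were made under every alternative run, and those for IMQ versus mock were 9 or 10. For IMQ and PA versus IMQ 6 members were called, against 5 to 8 under the other settings and 4 to 7 with single arrays left out. For PA versus mock 3 members were called, against 1 when only the PA and mock arrays were fitted, 1 without the 5 arrays high in Il6, 1 to 2 when each array was left out in turn, 2 with repeated quantile normalization or array medians set equal, and 4 with dim genes left out or a variance trend. Quantile normalization lost Mmp13 (adjusted p = 0.0633) and Mmp19 (0.0646) and added Timp2 (0.0365). For the interaction the count was 5, against 2 without those 5 arrays, 4 with array medians set equal, 6 with dim genes left out, 7 with a variance trend and 4 to 6 with single arrays left out. The number of calls over all genes for PA versus mock was 331, against 737 with a variance trend and robust moderation, 530 with dim genes left out, 150 when only those 2 groups were fitted and 15 without the 5 arrays, and for the interaction 3015 against 1200 without them. Uncalled changes near 0 turned sign. For PA versus mock Mmp12 gave 0.0064 with repeated quantile normalization, Mmp14 gave 0.0079 and Mmp25 0.0087 with array medians set equal, and Mmp14 gave 0.010 and Mmp25 0.17 without the 5 arrays. With single arrays left out the same change ran between -0.096 and 0.019 for Mmp9, -0.028 and 0.0075 for Mmp14, and -0.055 and 0.022 for Mmp25. The interaction gave -0.079 for Mmp25 and -0.16 for Lox without the 5 arrays, and between -0.055 and 0.15 for Lox with single arrays left out. The cause of these turns was not tested. Deviations of arrays with the same replicate number correlated from -0.12 to 0.17 over 24 pairs. The pairs of replicate 3 were all positive (0.04 to 0.17). Arrays of different numbers were not compared, so whether the numbers pair the samples cannot be told. With the replicate block 2 members were called for PA versus mock, Mmp19 being lost (0.21, adjusted p = 0.0569), and no other member's call changed.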
